A study of Homo sapiens with 4 samples.

Results

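The genes described here build, empty and refill the calcium store of the endoplasmic reticulum. They were chosen by name, as every member of 3 small families, and all 9 of them were measured: the inositol trisphosphate (IP3) receptors ITPR1, ITPR2 and ITPR3, the ryanodine receptors RYR1, RYR2 and RYR3, and the SERCA calcium pumps ATP2A1, ATP2A2 and ATP2A3. On the array they stood for 12 of 24000 targets and 36 of 71998 probes, among 17217 named genes in all. HEK293 is a human embryonic kidney line transformed with adenovirus DNA and used throughout receptor research. The 4 samples form a single group of untreated cells, each from its own confluent culture plate with its own RNA extraction and its own Cy3-labelled array. A single cell line under basal conditions was the model, so there was no comparison between conditions, and the question was which of these genes the cells hold message for.

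As background, a receptor that couples to Gq activates phospholipase C, which makes IP3, and IP3 opens IP3 receptors in the membrane of the store. Ryanodine receptors are related and far larger release channels, best known from muscle, where they are opened by calcium itself or by a voltage sensor in the plasma membrane. SERCA pumps use ATP to return calcium from the cytosol to the store. HEK293 cells are a common host for assays that read receptor activity as a rise in cytosolic calcium.

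A gene's level was a log2 value per array. The study's own threshold was used. Genes listed by the paper as seminal proteins, which it considered unlikely to be expressed in its cell lines, set a baseline for each array. That baseline, 2 SD over their mean, was subtracted from every gene. The result is called a distance here, in log2 units, and a gene was counted as detected where its mean distance over the 4 arrays was above 0. The baseline was 10.10 ± 0.52 log2 units (SD, n = 4), lowest on replicate 1 at 9.47 and highest on replicate 3 at 10.69. Its height rested on SPATA5 and SPATA13, whose levels ran from 9.21 to 10.73 while the other 8 control genes ran from 6.05 to 7.72. On replicate 3 SPATA5 itself lay 0.04 log2 units above the baseline. Without SPATA5 and SPATA13 the mean baseline was 7.78, so which genes count as undetected depends on them. Probes differ in affinity, so a distance answers whether a gene was above the controls and does not rank one gene's message against another's. The arrays read RNA pooled from many cells, so fewer cells with a message and less of it per cell cannot be told apart.

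Of the 9 genes, 5 were detected: ITPR1, ITPR2, ITPR3, RYR1 and ATP2A2. The background share is close to that, since 52.7% of all named genes were detected, so the count alone says nothing particular about these families. Above the baseline on all 4 arrays were 4 of the 9, against 45.0% of all genes. A one-sided limma test of the distances, adjusted over all genes, called the same 5, against 45.9% of all genes. That test gave every gene the same standard error of 0.351, so its p-values do not reflect a gene's own spread between arrays. All 3 IP3 receptors were detected, but only 1 of 3 ryanodine receptors and 1 of 3 SERCA pumps. RYR2 and ATP2A3 lay at the baseline itself, and RYR3 and ATP2A1 were below it on every array.

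**Figure D1:**
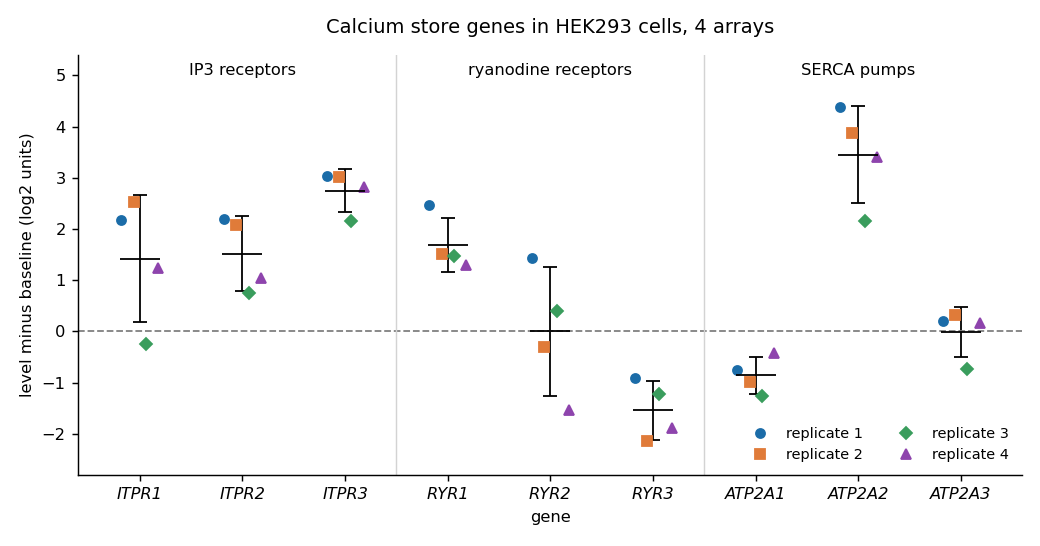
Level minus baseline (log2 units, y axis) of the 9 calcium store genes (x axis) on the 4 HEK293 arrays. Points are single arrays, the horizontal bar is the mean and the whiskers are 1 SD over n = 4 arrays, and the dashed line at 0 is the baseline. ITPR3 and ATP2A2 lie above 2 on every array, while RYR2 and ATP2A3 straddle the line.

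Among the IP3 receptors, ITPR3, the subtype common in epithelial and secretory cells, had the largest and steadiest distance of its family. On replicates 1 to 4 it was 3.03, 3.01, 2.15 and 2.82, with a mean of 2.75 ± 0.41 log2 units (SD, n = 4; limma adjusted p = 1.22e-14). Its 3 probes were above the baseline on each of the 4 arrays, so all 12 probe values were.

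ITPR2, the subtype with the highest affinity for IP3, had distances of 2.20, 2.08, 0.74 and 1.04 on replicates 1 to 4. The mean was 1.51 ± 0.73 (SD, n = 4; limma adjusted p = 2.24e-05). Every array lay above the baseline, with replicates 3 and 4 closer to it than replicates 1 and 2. Before the subtraction its level was 11.67, 12.01, 11.43 and 11.36, a spread of 0.29 (SD, n = 4). Of its 12 probe values 10 were above the baseline, and the other 2 belonged to a single probe on replicates 3 and 4.

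ITPR1, the main subtype of cerebellar Purkinje neurons, was the least even of the 3. The distances were 2.17, 2.53, -0.24 and 1.23 on replicates 1 to 4, with a mean of 1.42 ± 1.24 (SD, n = 4; limma adjusted p = 7.03e-05). Replicate 3 was therefore the single array below the baseline. Only 2.68% of all genes had a spread of distance at least as wide, while 9.74% had a spread of level at least as wide. On replicate 3 the probes read 8.95, 11.49 and 9.68 log2 units, against 11.46, 12.21 and 10.95 on replicate 1, so each of the 3 was lower there. Without replicate 3 the mean distance of ITPR1 was 1.97. From replicates 3 and 4 alone it was 0.49 and the limma test did not pass (adjusted p = 0.279), and from replicates 1 and 3 alone it was 0.96 (adjusted p = 0.147).

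Of the ryanodine receptors, RYR1, the release channel of skeletal muscle, was detected. It stood 2.47, 1.50, 1.47 and 1.30 above the baseline on replicates 1 to 4, with a mean of 1.68 ± 0.53 log2 units (SD, n = 4; limma adjusted p = 2.38e-06). The 3 probes behaved alike. All 12 of their values were above the baseline, and the probes' mean values lay within 0.37 log2 units of each other, the narrowest range among the 9 genes.

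RYR2, the release channel of heart muscle, sat on the baseline with a mean distance of -0.00 ± 1.25 (SD, n = 4; limma adjusted p = 0.953). Replicates 1 and 3 were above the line, at 1.44 and 0.39, and replicates 2 and 4 were below it, at -0.30 and -1.54. Its level was 10.91, 9.63, 11.08 and 8.78 on replicates 1 to 4, and 3.09% of all genes varied at least as much in level. A single probe spread most, reading 11.86, 10.26, 11.63 and 6.93, while the other probes of RYR2 read 8.81 and 9.55 on replicate 4. Across genes, replicates 1 and 3 correlated at r = 0.971 and replicates 2 and 4 at r = 0.977, while the other 4 pairs of arrays lay between 0.949 and 0.959. The part of this likeness in the values of RYR2 was not tested. Leaving out replicate 4 moved RYR2 to 0.51 and leaving out replicate 2 moved it to 0.10, and neither value passed the limma test.

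RYR3, which is found at low levels in many tissues including brain, was below the baseline on all 4 arrays. The distances were -0.91, -2.15, -1.22 and -1.89, with a mean of -1.54 ± 0.57 (SD, n = 4). Of its 12 probe values 1 was above the baseline, by 0.15 log2 units on replicate 1. The levels of RYR1, RYR2 and RYR3 were all highest on replicates 3 and 1, in that order, an order seen after the values were known.

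**Figure D2:**
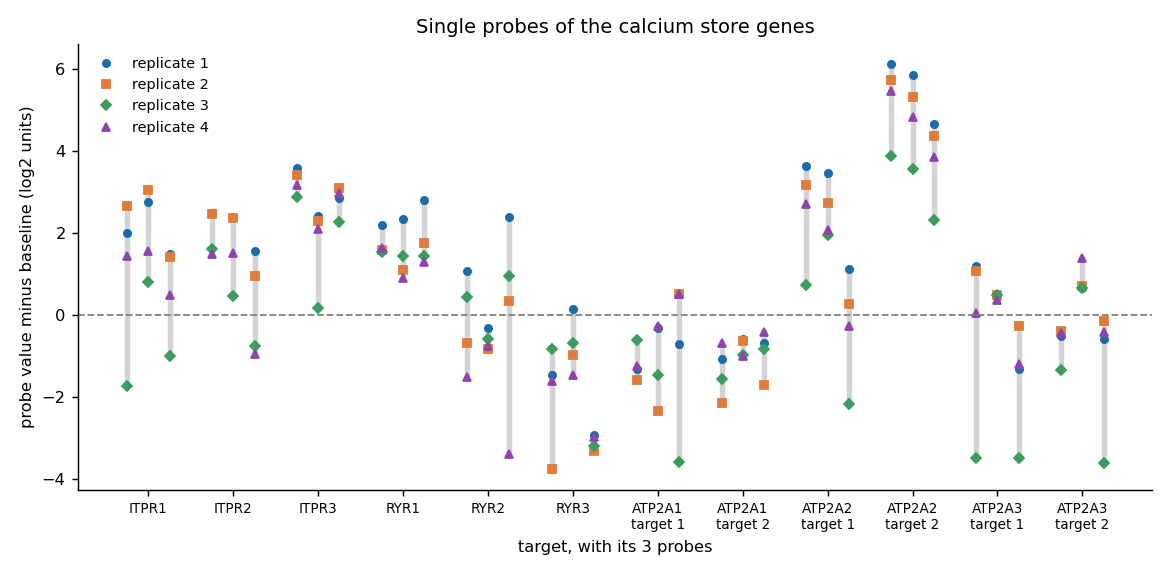
Value of each probe minus the baseline of its array (log2 units, y axis) for the 12 targets of the 9 genes (x axis), 3 probes a target. Points are the 4 arrays and a gray bar joins the lowest and highest of a probe. All 12 values of ITPR3 and of RYR1 are above 0. In 1 probe of RYR2, replicate 4 lies far below the other arrays. Other such probes, low on replicate 3, include 1 of ITPR1, 1 of ATP2A1 and 3 of ATP2A3.

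Of the SERCA pumps, ATP2A2 had the largest distance of all 9 genes. It encodes SERCA2, whose SERCA2b form serves as the housekeeping pump of most cells and whose SERCA2a form is the pump of heart and slow muscle. Its distance was 4.38, 3.87, 2.16 and 3.40 on replicates 1 to 4, with a mean of 3.45 ± 0.95 log2 units (SD, n = 4; limma adjusted p = 3.85e-22), and 12.4% of all genes had a mean distance at least as large. The level was 12.85 on replicate 3 and between 13.72 and 13.85 on the other arrays, so replicate 3 stood apart from the rest.

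The array held a separate target for each of the 2 classic SERCA2 transcripts, told apart by RefSeq accession. The target named for the SERCA2b transcript stood 5.66, 5.25, 3.38 and 4.86 above the baseline, with a mean of 4.79 ± 0.99 (SD, n = 4). The target named for the SERCA2a transcript stood 3.10, 2.49, 0.93 and 1.94 above it, with a mean of 2.11 ± 0.92 (SD, n = 4). Both were thus above the baseline on every array. Within an array the former exceeded the latter by 2.46 to 2.92 log2 units, a difference between probes of unlike affinity that was not tested as one between transcripts. The SERCA2a target was uneven in itself, because its probes averaged 12.66, 12.66 and 9.84 log2 units, and the dimmest of them was below the baseline on replicates 3 and 4. Which probes lie in sequence that the 2 transcripts share was not examined, since no probe sequences were used here.

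ATP2A3, the pump of platelets, lymphocytes and some epithelia, lay at the baseline. Its distances on replicates 1 to 4 were 0.20, 0.33, -0.74 and 0.16, with a mean of -0.01 ± 0.49 log2 units (SD, n = 4; limma adjusted p = 0.977). It was above the line on 3 of 4 arrays and rose to 0.23 without replicate 3, which did not pass the limma test (adjusted p = 0.523). Its probes did not behave alike. Of its 6 probes, 2 were above the baseline on all 4 arrays and 3 were below it on all 4. The remaining probe was above it on 3 arrays and at -3.51 on replicate 3. On that array 3 of the 6 probes, from both targets, read -3.51, -3.50 and -3.63 against the baseline. The 2 targets of the gene had mean distances of -0.03 and -0.00.

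ATP2A1, the pump of fast skeletal muscle, was below the baseline on all 4 arrays. The distances were -0.75, -0.99, -1.27 and -0.43, with a mean of -0.86 ± 0.36 (SD, n = 4), and its targets had mean distances of -0.74 and -0.98. Of 24 probe values 2 were above the baseline, both from the same probe, by 0.51 on replicate 2 and on replicate 4.

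Sequence at the start of these genes was set beside the detection calls. RefSeq windows (GRCh38.p14) of 250 bases before to 50 after a start were found for 7 of the 9 genes, in 9 windows. They were searched for the dinucleotide CG, which reads the same on either strand and is dense at the starts of many widely transcribed genes. The sequences of RYR1, RYR3 and ATP2A2 are shown, on the plus strand with each CG in capitals, because they set a detected and an undetected ryanodine receptor beside the pump with the largest distance. They lie at chr19:38433441-38433740, chr15:33310717-33311016 and chr12:110280997-110281296.
RYR1: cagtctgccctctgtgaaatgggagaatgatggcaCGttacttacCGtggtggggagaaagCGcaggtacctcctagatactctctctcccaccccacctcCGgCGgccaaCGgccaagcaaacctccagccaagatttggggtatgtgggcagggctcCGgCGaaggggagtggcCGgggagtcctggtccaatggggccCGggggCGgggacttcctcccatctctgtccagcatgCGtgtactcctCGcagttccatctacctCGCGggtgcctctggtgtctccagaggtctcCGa
RYR3: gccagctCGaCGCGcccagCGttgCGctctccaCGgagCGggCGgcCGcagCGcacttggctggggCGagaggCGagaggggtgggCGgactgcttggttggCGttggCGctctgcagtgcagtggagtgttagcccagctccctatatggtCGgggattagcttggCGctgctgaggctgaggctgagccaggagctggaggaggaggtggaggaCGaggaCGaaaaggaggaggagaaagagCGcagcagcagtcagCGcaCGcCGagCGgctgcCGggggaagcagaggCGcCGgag
ATP2A2: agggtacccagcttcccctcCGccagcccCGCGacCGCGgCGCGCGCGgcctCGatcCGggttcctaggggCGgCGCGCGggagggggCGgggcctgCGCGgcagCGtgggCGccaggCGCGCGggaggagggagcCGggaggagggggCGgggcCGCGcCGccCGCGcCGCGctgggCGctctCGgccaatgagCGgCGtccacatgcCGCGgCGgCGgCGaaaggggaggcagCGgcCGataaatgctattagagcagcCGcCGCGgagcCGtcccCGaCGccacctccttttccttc

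The ATP2A2 window above held 49 CG, a number that 1.60% of all 35116 windows reached, and a window at its other listed start held 14. RYR1 held 16, reached by 47.5% of windows, and RYR3 held 27, reached by 28.2%, so the ryanodine receptor that was detected had the fewer CG. RYR2, which lay at the baseline, held 32. ITPR3 held 33 and ITPR1 held 19, and the 2 windows of ATP2A1 held 5 and 35. Detection and CG number did not follow 1 order in these genes.

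Genes that act with the channels and pumps were then read from 7 lists written from textbook knowledge. Of 79 genes, 74 were matched. Of these 49 (66.2%) were detected, against 52.7% of all named genes. On all 4 arrays 44 of the 74 matched genes lay above the baseline, against 45.0% of all genes. Limma called 44 of the 74, against 45.9% of all genes. Their median distance was 1.68 log2 units, and that of all named genes was 0.26. The lists hold many genes that most cells use, and the counts of single lists are to be read against the same 52.7%, to which several of them are close.

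Inside the store, 8 of 14 calcium-binding proteins and chaperones (57.1%) were detected, close to the share of all genes, with a median distance of 2.25. Calreticulin (CALR), the main calcium buffer of the endoplasmic reticulum, stood at 5.48 ± 0.62 log2 units, and the chaperone HSP90B1 at 5.36 ± 0.79 (SD, n = 4 for each). The calsequestrins, which buffer calcium in the muscle store, were below the baseline on all 4 arrays, CASQ1 at -2.69 ± 0.58 and CASQ2 at -2.92 ± 0.37 (SD, n = 4 for each). PDIA3, a chaperone that most cells use and that was picked out after its value was seen, stood at -0.10 ± 0.50 (SD, n = 4), so a gene at the baseline of these arrays is not thereby shown to be silent.

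Of the proteins bound to the channels, 13 of 20 matched genes (65.0%) were detected, with a median of 1.09. FKBP1A, the immunophilin FKBP12 that binds ryanodine receptors, stood at 5.16 ± 0.68 log2 units, and the calmodulin gene CALM3 at 5.37 ± 0.68 (SD, n = 4 for each). Triadin (TRDN), which ties ryanodine receptors to calsequestrin in muscle, was at -3.29 ± 0.57, and junctophilin JPH2, which holds the heart muscle store to the plasma membrane, at -2.90 ± 0.49 (SD, n = 4 for each). Both were below the baseline on all 4 arrays. Other genes of this list, picked out after their values were seen, went both ways. JPH1, ASPH and FKBP1B were above it on all 4 arrays, at 1.37 ± 1.02, 1.89 ± 0.54 and 3.16 ± 0.72. The junctophilins JPH3 and JPH4 were at -0.01 ± 0.59 and -0.92 ± 0.36 (SD, n = 4 for each).

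Of the small membrane proteins that regulate SERCA, 3 of 6 were matched. Phospholamban (PLN), the SERCA inhibitor of heart, had distances of 0.07, -0.69, -1.08 and -0.59. Sarcolipin (SLN), the inhibitor of skeletal muscle and atrium, was below the baseline on every array, at -0.42, -0.16, -1.67 and -1.76. ARLN, also called another-regulin and found in many tissues, was the exception at 2.68 ± 0.70 (SD, n = 4) and above the baseline on all 4 arrays.

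In the list of leak channels and other store membrane proteins 8 of 9 were detected, with a median of 2.73. That count includes TPCN1 and TPCN2, which are channels of endosomes and lysosomes. TMBIM6, known as Bax inhibitor-1, stood at 5.16 ± 0.67 (SD, n = 4). TPCN1, gated by the messenger NAADP, was at 0.15 ± 0.73 and the potassium channel TMEM38A at -0.78 ± 1.17 (SD, n = 4 for each). Neither passed the limma test.

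Enzymes that make or remove store-releasing messengers gave 4 detected genes of 7 (57.1%), close to the share of all genes. INPP5A, which removes a phosphate from IP3, stood at 2.93 ± 0.69, and the IP3 kinase ITPKB at 1.26 ± 0.51 (SD, n = 4 for each). CD38 and BST1, which make cyclic ADP-ribose, a messenger that sensitises ryanodine receptors, were below the baseline on all 4 arrays, at -3.00 ± 0.55 and -1.99 ± 1.15 (SD, n = 4 for each).

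All 11 genes for the transfer of calcium from the store to mitochondria were above the baseline on all 4 arrays, against 45.0% of all genes. Their median was 3.80. The outer membrane channel VDAC1 stood at 5.35 ± 0.61 and HSPA9, the chaperone that links it to IP3 receptors, at 5.25 ± 0.80 (SD, n = 4 for each). The lowest of the 11 were MCUB, at 2.11 ± 1.08, and SMDT1, at 1.25 ± 0.99 (SD, n = 4 for each), both parts of the mitochondrial calcium uniporter.

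Of 10 other calcium pumps and exchangers 4 were detected, and the list's median was -1.40. The Golgi pump ATP2C1 stood at 3.00 ± 0.79 and the plasma membrane pump ATP2B4 at 2.21 ± 0.76 (SD, n = 4 for each). The Golgi pump ATP2C2 of secretory epithelia was at -3.12 ± 0.82 and the sodium-calcium exchanger SLC8A1 at -3.05 ± 0.63 (SD, n = 4 for each), below the baseline on all 4 arrays.

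**Figure D3:**
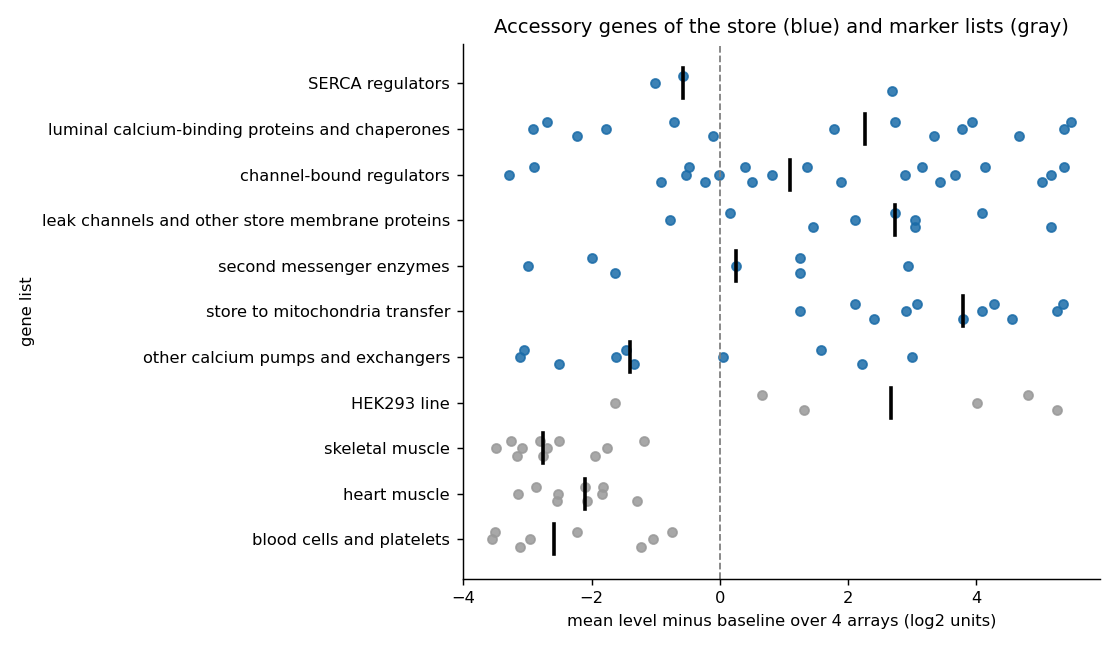
Mean distance over 4 arrays (log2 units, x axis) of each matched gene in the accessory lists (blue) and in the marker lists (gray), 1 row a list. A point is a gene, the black tick is the median of the list and the dashed line at 0 is the baseline. All 11 genes of transfer to mitochondria lie above 0 and every matched gene of the muscle and blood lists lies below it.

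RYR1 is named for skeletal muscle, so genes of muscle were read as a check. All 11 matched skeletal muscle genes were below the baseline on every array, with means from -3.49 (TNNT3) to -1.18 (ACTA1) and a median of -2.76. Of all 17217 named genes, 6855 were below it on all 4 arrays. CACNA1S, the voltage sensor that opens RYR1 in muscle, was picked out after its value was seen and stood at -1.94 ± 0.87 (SD, n = 4). All 9 heart muscle genes were below it on every array, with means from -3.15 to -1.30. Of 8 genes of blood cells and platelets, where ATP2A3 is abundant, 0 were detected, and 7 were below the baseline on all 4 arrays. Genes known from the HEK293 line gave 5 of 6 detected, against 52.7% of all genes. VIM stood at 5.26 ± 0.64 and KRT8 at 4.80 ± 0.66 (SD, n = 4 for each). NEFM counted among the 5 with a mean of 0.66 ± 3.08 (SD, n = 4; limma adjusted p = 0.0644), but its distance was -1.62 on replicate 2 and -2.24 on replicate 4 against 4.10 on replicate 1. Like RYR2, it was above the baseline on replicates 1 and 3 alone. Only 4 of the 6 were above it on all 4 arrays, against 45.0% of all genes. PAX2 was below the baseline on every array at -1.63 ± 0.74 (SD, n = 4).

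Of the genes that overlap these loci in the RefSeq annotation, 2 were named on the array: AVEN at RYR3 and RABEP2 at ATP2A1. AVEN stood 1.75 log2 units above the baseline and RABEP2 at -0.65. Double-stranded cDNA was labelled, so strands could not be told apart, and probes were not checked for matches to such genes or to related family members.

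Which genes were counted beyond these 5 varied with the baseline and with the arrays used. ITPR1, ITPR2, ITPR3, RYR1 and ATP2A2 kept a mean distance above 0 under the reported setting and all 17 others, and ITPR3 and ATP2A2 passed the limma test under each of these 18. The lowest distances were met with a baseline of 3 SD, at 0.10 for ITPR1, 0.20 for ITPR2, 0.37 for RYR1, 1.43 for ITPR3 and 2.13 for ATP2A2. With olfactory receptor genes as controls, the baseline fell to 8.02 and all 9 genes were detected. Without SPATA5 and SPATA13 it fell to 7.78 and all 9 were above it on all 4 arrays. Without replicate 2, 6 genes were detected at a baseline of 10.16, RYR2 being the added one.

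**Figure D4:**
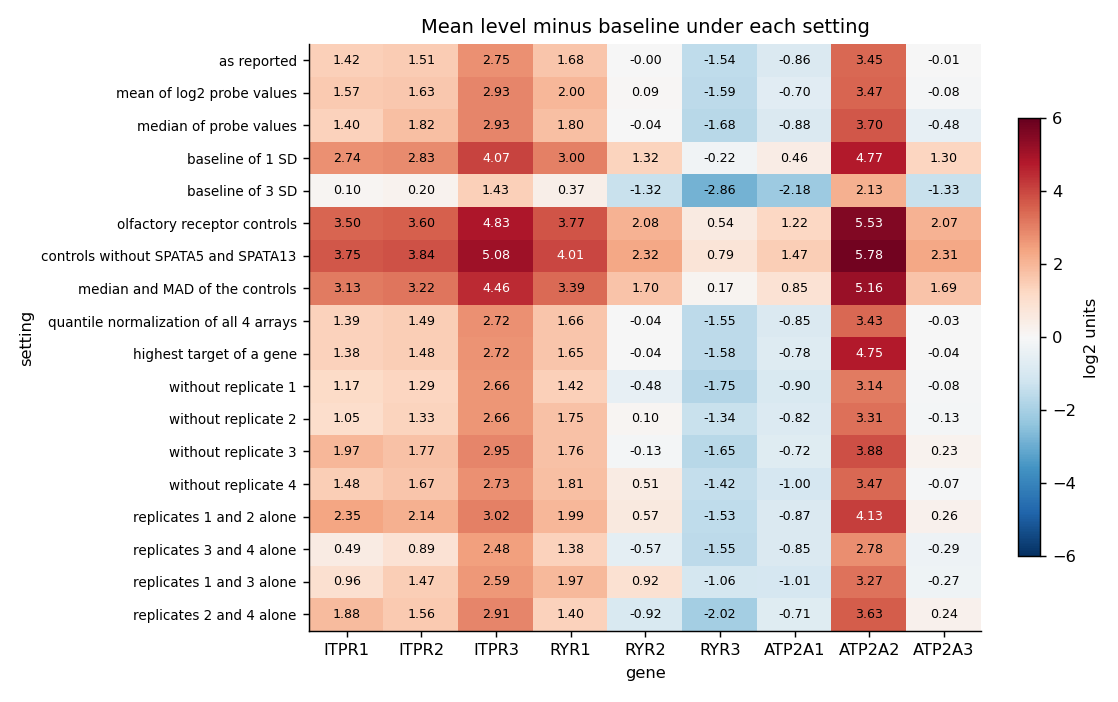
Mean distance (log2 units, colour and printed value) of the 9 genes (columns) under the reported setting and 17 alternatives (rows). Red is above and blue below the baseline of that setting. ITPR1, ITPR2, ITPR3, RYR1 and ATP2A2 stay above 0 in every row, while the other 4 genes change sign with the control genes or the number of SDs.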

How the data were processed

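The values were probe signals from single-colour NimbleGen arrays designed on the HG18 gene catalogue. For every probe the authors deposited a log2 value on each array, between 5.14 and 15.99, and the submitters' processing notes name RMA, with no settings. Replicates 1 and 2 shared a distribution of values and so did replicates 3 and 4. Arrays correlated at Pearson's r of 0.949 to 0.977 across genes, which are not independent replicates, highest for replicates 1 and 3 and for replicates 2 and 4, and no pair shared more than 8 identical probe values. Raw signals were not analysed here, so background and saturation were not examined.

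Probe names gave RefSeq accessions, of which 19125 of 24000 matched a gene (names from GRCh38.p14). A target was log2 of its probes' mean linear value and a gene the mean of its targets. Controls were 10 of the 11 genes the study names, as PYY2 was not matched. Distances were tested one-sided with limma 3.58 in R 4.3, Benjamini-Hochberg adjusted at 0.05 over 17217 genes. The code was tested on simulated data with the same SD for every gene and independent arrays. That simulation cannot judge a shared standard error where genes differ in spread. The prior made every gene's standard error 0.351. P-values thus rest on the spread between these 4 plates pooled over all genes, not on each gene's own spread. The baseline's own error within an array is not in them. An exact sign-flip test of 4 arrays cannot go below 0.0625. Members and lists were chosen with earlier results of these data known. Named genes were the 9 members, the 2 highest and 2 lowest of each list, and any said to be chosen otherwise, and 1 gene so named is not reported here.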

Additional observations from a re-analysis of the deposited data

Results flagged for a closer look

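Of 52 sets of 4 values looked at, 4 had a gap between 1 array and its nearest neighbour over the limit of Dixon's test, and chance marks about 1 in 20.

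For the level of ATP2A2, replicate 3 read 12.85 where the others lay between 13.72 and 13.85, a gap of 0.868 of the range. Its SERCA2b target read 14.07 there and between 15.13 and 15.18 elsewhere, a gap of 0.955. These are readings of the same gene and so are not separate cases. The distance of ATP2A3 ran from 0.16 to 0.33 except on replicate 3, at -0.74, a gap of 0.843. That of JPH2 ran from -3.20 to -3.08 except on replicate 3, at -2.17, a gap of 0.884, with every array below the baseline. The ATP2A2 readings are levels, taken before the baseline was subtracted. The level of ATP2A3 was 9.95 on replicate 3, against 9.67, 10.27 and 10.48 on replicates 1, 2 and 4. Replicate 3 had the highest baseline, and subtracting a higher baseline lowers a distance. The distance of JPH2 was nonetheless highest on replicate 3. For ATP2A3, whose distance was lowest there, the part of the baseline in the gap was not tested.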

How the results depend on the processing

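Of the counts, 57 stayed within 1.5 times the reported value and 13 did not, and the cause was not tested. Members detected, against 5, were 8 with a baseline of 1 SD and 9 with olfactory receptor controls, without SPATA5 and SPATA13, and with the median and MAD of the controls. Members above the baseline on all 4 arrays, against 4, were 7, 8, 9 and 8 under those settings and 2 with 3 SD. Limma called, against 5, 9, 9 and 8 under the last 3 and 2 with 3 SD. Leaving out each replicate gave 5 to 6 detected, 4 to 6 above on all remaining arrays, 5 called and 48 to 50 accessory genes.

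Signs changed only for the genes below or at the baseline. With 1 SD, RYR2 was at 1.32, ATP2A1 at 0.46 and ATP2A3 at 1.30. With olfactory receptor controls RYR2 was at 2.08, RYR3 at 0.54, ATP2A1 at 1.22 and ATP2A3 at 2.07. Without SPATA5 and SPATA13 they were at 2.32, 0.79, 1.47 and 2.31, and with the median and MAD at 1.70, 0.17, 0.85 and 1.69. RYR2 was at 0.091 with the mean of log2 probe values. It ran from -0.48 to 0.51 and ATP2A3 from -0.13 to 0.23 as single replicates were left out. From replicates 1 and 2 alone RYR2 was at 0.57 and ATP2A3 at 0.26, RYR2 was at 0.92 from replicates 1 and 3, and ATP2A3 at 0.24 from replicates 2 and 4. Limma with a trend and a robust prior, or on the brighter genes alone, called the same 5 genes. No paired analysis was possible because the design holds a single group.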

Other observations

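ATP2A2 had the largest distance of the 9 genes, and the genes whose levels changed most like its own over the 4 arrays were HINT1, ITGAE and TFE3. Likeness was the root mean square difference after each gene was centred on its own mean, at 0.01, 0.02 and 0.03 log2 units. As 668 of 17216 genes (3.88%) were within 0.20, many genes share this shape, which is lower on replicate 3.

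The targets of ATP2A1 shared the number in the probe name for 2 of their 3 probes. Probes with a shared number differed by 0.13 to 0.96 log2 units on an array. The meaning of that number is not given in the sources used here.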
